A study of Mus musculus with 20 samples.

Results

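The genes described here encode enzymes and regulators of cholesterol and fatty acid synthesis. They are 31 genes chosen by symbol from a list of this pathway, by a rule that uses no measured value though earlier results of these data were known when the list was drawn up, out of 54446 gene IDs in the deposited tables. All 31 were found and all 31 passed the expression filter (a mean of at least 1 TPM over the 15 bulk libraries), as did 14290 genes in all. The list does not hold every step of either pathway. Mouse embryonic stem cells of the line F1G4, carrying the double reporter T::H2B-mCherry/Sox2::H2B-Venus, were freed of feeder cells and aggregated for 48 h, and every group then received a pulse of 3 µM CHIR99021, which activates WNT signalling. The 96h group was collected at 96 h with 10 pooled structures per library, and the other groups at 120 h with 6. Gastruloid was grown without Matrigel, and TLSMG (trunk-like structures) was embedded in Matrigel, which is a basement membrane extract. TLSMGC had Matrigel and further CHIR99021, and TLSMGCL had Matrigel, CHIR99021 and LDN, which blocks BMP receptors. Each group had 3 libraries, described as biological replicates of 1 cell line. Only structures that showed an asymmetric pole went into the pools, so the values describe a selected share of the structures grown. The 5 single-cell samples of the series were not analysed here.

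Cholesterol is built from acetyl-CoA through the mevalonate steps, which yield isoprenoid units, then through squalene and lanosterol, and then by a series of demethylations, reductions and a double-bond shift. Fatty acids are built from the same acetyl-CoA by carboxylation and chain building, followed by elongation and desaturation. The transcription factors encoded by Srebf1 and Srebf2 (SREBPs) bind promoters of most of these genes when sterol is low, while the INSIG proteins hold the SREBPs back in the endoplasmic reticulum when sterol is high. In the embryo, cholesterol is also attached to Hedgehog ligands, and loss of late synthesis enzymes such as DHCR7 disturbs patterning.

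The promoters of 6 members whose levels differed between groups are shown because they hold binding motifs that this pathway is known for. Each stretch is the 200 bases before the annotated start, read 5′ to 3′ on the gene's strand, from RefSeq on build GRCm38.p6. Capitals mark the CCAAT box in either orientation (CCAAT or ATTGG) and the sterol regulatory element (SRE, searched as TCACNCCAC on both strands). In Fasn a CCAAT and an ATTGG overlap.
Hmgcs1, chr13:119690151-119690350, plus strand: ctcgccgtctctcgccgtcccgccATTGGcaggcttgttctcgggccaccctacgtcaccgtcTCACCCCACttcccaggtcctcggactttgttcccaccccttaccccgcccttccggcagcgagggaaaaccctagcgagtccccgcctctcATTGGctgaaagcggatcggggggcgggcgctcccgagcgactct
Idi1, chr13:8885406-8885605, plus strand: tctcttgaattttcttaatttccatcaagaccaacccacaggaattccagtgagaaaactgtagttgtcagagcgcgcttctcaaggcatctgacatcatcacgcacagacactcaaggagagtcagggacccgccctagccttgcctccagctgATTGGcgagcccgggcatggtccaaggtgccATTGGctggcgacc
Insig2, chr1:121332590-121332789, minus strand: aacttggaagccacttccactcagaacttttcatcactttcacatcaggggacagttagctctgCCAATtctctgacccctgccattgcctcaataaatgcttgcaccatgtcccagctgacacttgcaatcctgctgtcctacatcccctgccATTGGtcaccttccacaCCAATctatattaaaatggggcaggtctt
Mvd, chr8:122443423-122443622, minus strand: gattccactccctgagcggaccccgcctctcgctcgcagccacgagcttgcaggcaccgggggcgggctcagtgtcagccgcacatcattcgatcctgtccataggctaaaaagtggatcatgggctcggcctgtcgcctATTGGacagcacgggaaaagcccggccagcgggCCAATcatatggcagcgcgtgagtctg
Nsdhl, chrX:72918321-72918520, plus strand: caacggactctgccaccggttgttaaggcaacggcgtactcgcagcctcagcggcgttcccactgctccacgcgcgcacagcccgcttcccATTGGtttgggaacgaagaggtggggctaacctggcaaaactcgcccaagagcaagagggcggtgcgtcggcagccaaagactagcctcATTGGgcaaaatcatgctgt
Fasn, chr11:120824548-120824747, minus strand: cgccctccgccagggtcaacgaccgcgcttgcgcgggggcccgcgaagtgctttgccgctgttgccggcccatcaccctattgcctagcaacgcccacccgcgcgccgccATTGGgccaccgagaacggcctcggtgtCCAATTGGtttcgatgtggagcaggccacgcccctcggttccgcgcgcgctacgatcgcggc
Insig2 has 3 annotated starts, and the one shown is the first in the table and the only one whose window holds a CCAAT box, while the other two windows hold a GC box. Each of the other 5 genes has 1.

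Motifs were counted in windows from 250 bases before to 50 after each annotated start, on both strands, for the 24 members with an entry, which had 31 windows. The CCAAT box, bound by NF-Y, a known partner of the SREBPs, stood in 21 of the 31 windows (67.7%) and in at least 1 window of 20 of the 24 genes. It stood in 37.4% of all 32851 windows and in 38.3% of the 12302 windows of genes that passed the expression filter. The SRE letters stood in 1 window, that of Hmgcs1 (3.23% of windows, against 1.24% of all). The GC box (GGGCGG, bound by Sp1) stood in 23 windows (74.2%), against 35.7% of all and 64.3% of those of filtered genes. The E-box CACGTG stood in 4 windows (12.9%), against 7.15% and 9.97%. A match is a run of letters and not a measured binding site, and binding was not measured here.

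The members were abundant and varied modestly. Their median level over all libraries was 97.4 TPM, against 17.4 TPM for all genes tested, and 24 of 31 exceeded 50 TPM. The highest level in every library was that of Scd2, a stearoyl-CoA desaturase that places the first double bond in saturated fatty acids, at 853 to 1488 TPM. The lowest member on average was Insig2, at 9.76 TPM. The ratio of the highest to the lowest group mean had a median of 1.43 over the members and 1.54 over all genes tested. It ran from 1.17 in Srebf2 to 3.41 in Idi1, and reached 1.5 in 13 of 31 members, against 53.2% of all genes. The group mean was lowest at 96h for 15 members and in Gastruloid for 9, lowest in TLSMG for 0, and highest in TLSMGC for 12 and in TLSMG for 9. These ranks are on TPM and were not counted over all genes. On TPM the median log2 difference of all genes tested was itself above 0, at 0.14 in TLSMG versus 96h and 0.13 in TLSMG versus Gastruloid.

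**Figure D1:**
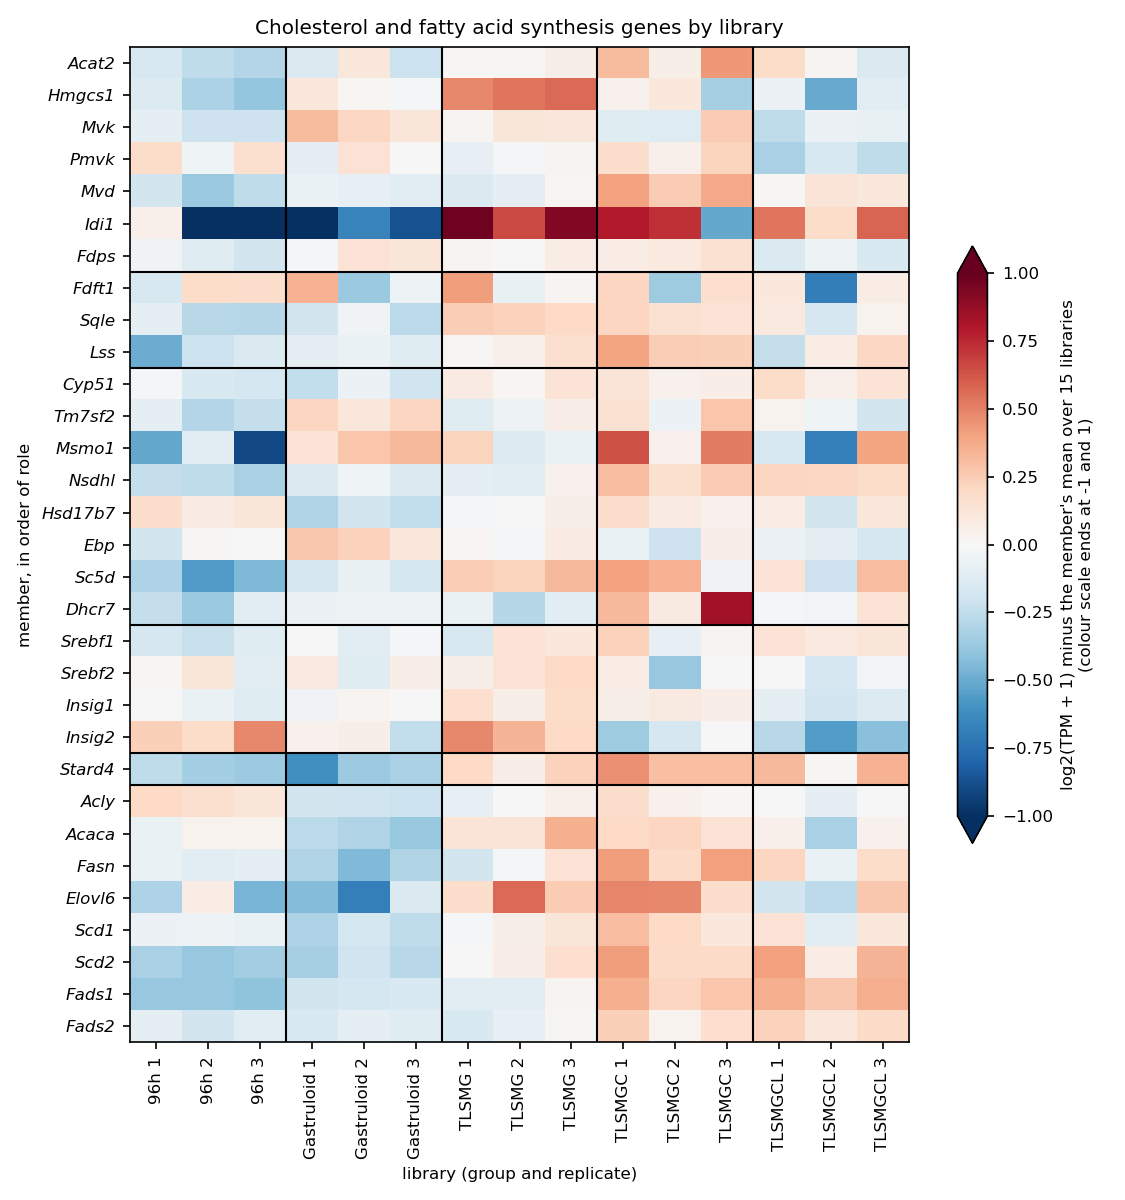
Each cell is log2(TPM + 1) in 1 library minus that member's mean over the 15 libraries, with members in order of role and libraries by group. The 96h and Gastruloid columns are mostly blue and those of TLSMG and TLSMGC mostly red, whereas the TLSMGCL columns hold both colours. Idi1 spans the widest range, from 27.2 to 129.6 TPM.

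The libraries differed in depth by a ratio of 2.19 (aligned bases, estimated as coverage per unit of FPKM), and 13688 to 14494 genes per library reached 1 TPM. RNA levels of cell type markers differed between groups. Summed over 5 markers each, presomitic and tailbud genes reached 765.5 to 1073 TPM in the 96h libraries. They stood between 34.6 and 68.0 TPM in Gastruloid and TLSMG, and between 190.7 and 263 TPM with further CHIR99021, with or without LDN. Neural tube genes ran from 133 to 304 TPM in Gastruloid and TLSMG and from 32.4 to 46.3 in the other groups. In these bulk samples a change in the share of a cell type and a change in RNA per cell cannot be told apart. Markers of yolk sac and hepatic endoderm, tissues that make and carry lipids, summed to under 1 TPM in every library. Of these 5 markers, 2 to 4 were listed at 0 in every library of a group.

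**Figure D2:**
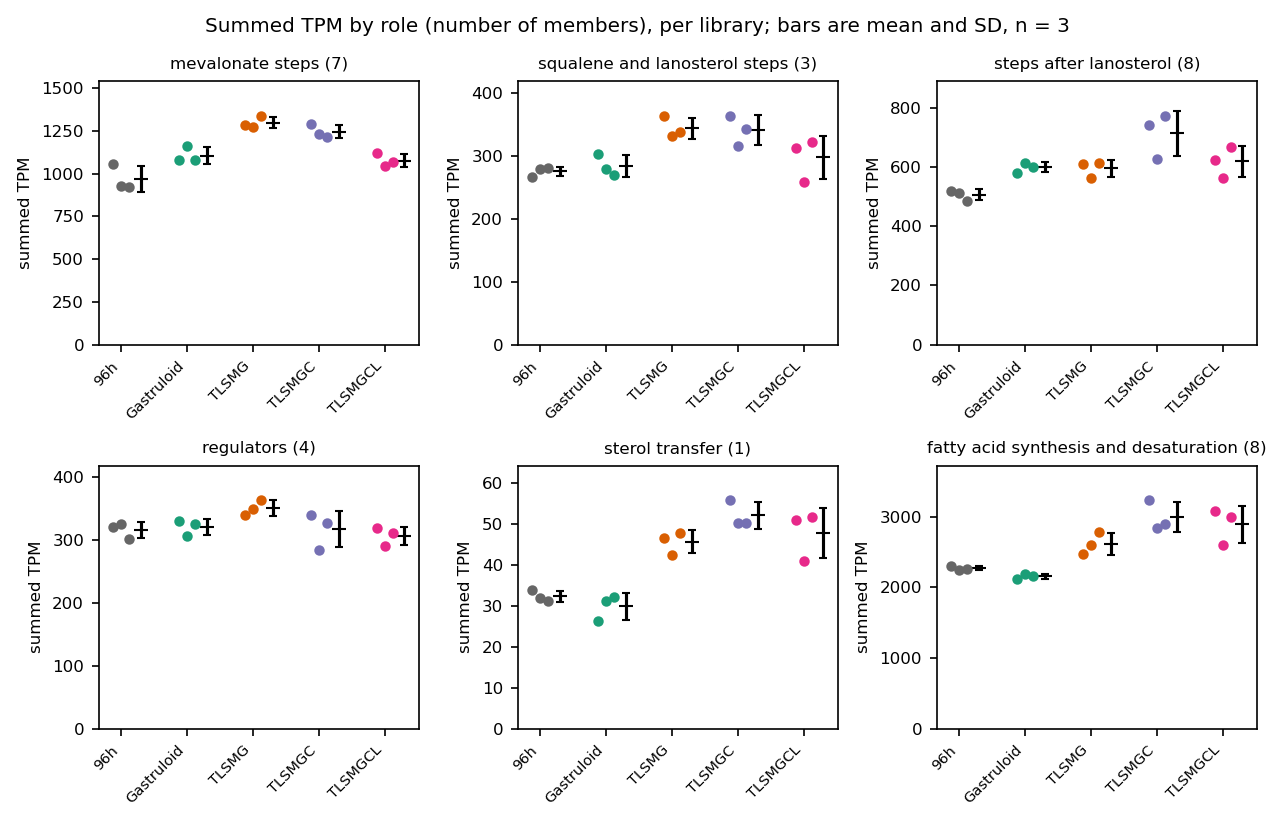
Summed TPM of the members of each role, 1 point per library, with the mean and SD of 3 libraries beside the points. The fatty acid sum was 2156 TPM in Gastruloid and 2992 TPM in TLSMGC, and the mevalonate sum was 968.3 TPM at 96h and 1299 TPM in TLSMG. Scd2 alone made up 923 TPM of the fatty acid sum in Gastruloid and 1341 TPM in TLSMGC.

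Between 96 h and 120 h without Matrigel, 13 of 31 members were called on TPM, close to the background of 41.2% of all genes. From 96h to Gastruloid, 3 of the 7 mevalonate genes rose (Mvk, Mvd and Fdps), 4 of the 8 genes after lanosterol rose (Tm7sf2, Msmo1, Nsdhl and Ebp) and 1 fell (Hsd17b7), and none of the 3 squalene and lanosterol genes passed the test. Of the 8 fatty acid genes, Acly, Acaca and Fasn fell and Fads1 rose. With Insig2, which fell, 8 members were higher and 5 lower with an adjusted p under 0.05, where 20.8% of all genes were higher and 20.5% lower. The median log2 difference, on the log2(TPM + 1) scale here and throughout, was 0.06 over the members and 0.0044 over all genes tested. FPKM gave 12 higher and 3 lower, where 27.5% of all genes were higher and 16.6% lower. Median-of-ratios scaling, which sets the typical gene to no change, gave 9 and 6 (21.0% and 22.3% of all genes). A correction for GC content and length also gave 9 and 6 (20.6% and 23.8%). Hmgcs1 and Sc5d missed the threshold on TPM (adjusted p = 0.05004 and 0.0806, limma). Both were called higher on these 3 scalings.

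Msmo1, the sterol C4-methyl oxidase, had 77.5, 103 and 58.7 TPM at 96h and 122, 135 and 139 TPM in Gastruloid. All 3 Gastruloid libraries lay above the 96h libraries, and the log2 difference was 0.76 (SE 0.245, adjusted p = 0.0240, limma). That call was lost without 96h replicate 1 (adjusted p = 0.0562), 96h replicate 3 (0.107), Gastruloid replicate 2 (0.0604) or Gastruloid replicate 3 (0.0638).

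Mvk, mevalonate kinase, had 48.3, 44.6 and 44.7 TPM at 96h and 64.7, 59.9 and 56.4 TPM in Gastruloid, a log2 difference of 0.39 (SE 0.0979, adjusted p = 0.00632). Tm7sf2, a sterol C14 reductase, had 59.1, 51.1 and 53.2 TPM at 96h and 73.2, 68.1 and 73.2 TPM in Gastruloid (0.39, SE 0.0901, adjusted p = 0.00366). The groups did not overlap in either gene. Tm7sf2 shares 532 exonic bases on the same strand with Vps51, so its reads could be split between the genes.

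Hsd17b7, a 3-ketosteroid reductase, had 23.2, 21.7 and 22.4 TPM at 96h and 16.4, 18.0 and 17.1 TPM in Gastruloid (log2 difference -0.37, SE 0.0806, adjusted p = 0.00247). Acly, the enzyme that makes cytosolic acetyl-CoA from citrate, had 514.8, 500.5 and 488 TPM at 96h and 394, 389.8 and 385 TPM in Gastruloid (-0.36, SE 0.0529, adjusted p = 0.000112). Both were lower in every Gastruloid library than in any 96h library. The fall of Acaca, the acetyl-CoA carboxylase that commits carbon to fatty acids, was -0.31 (adjusted p = 0.0156) and missed the threshold without Gastruloid replicate 3 (adjusted p = 0.0551). The calls of Acly, Fads1, Hsd17b7, Mvk and Tm7sf2 were kept under all 8 alternative settings and with any 1 library left out, and the number of members called fell from 13 to 7 without 96h replicate 3 or Gastruloid replicate 3 and to 8 without Gastruloid replicate 1 or 2. With 1 library left out in turn, Fasn and Nsdhl missed the threshold in all 6 fits, Mvd in 5, Insig2 in 4, Ebp in 3 and Fdps in 2. By scaling, the Mvd call was lost on median-of-ratios values and after the GC and length correction. The Fdps call was lost after that correction, and those of Fasn and Insig2 on FPKM.

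**Figure D3:**
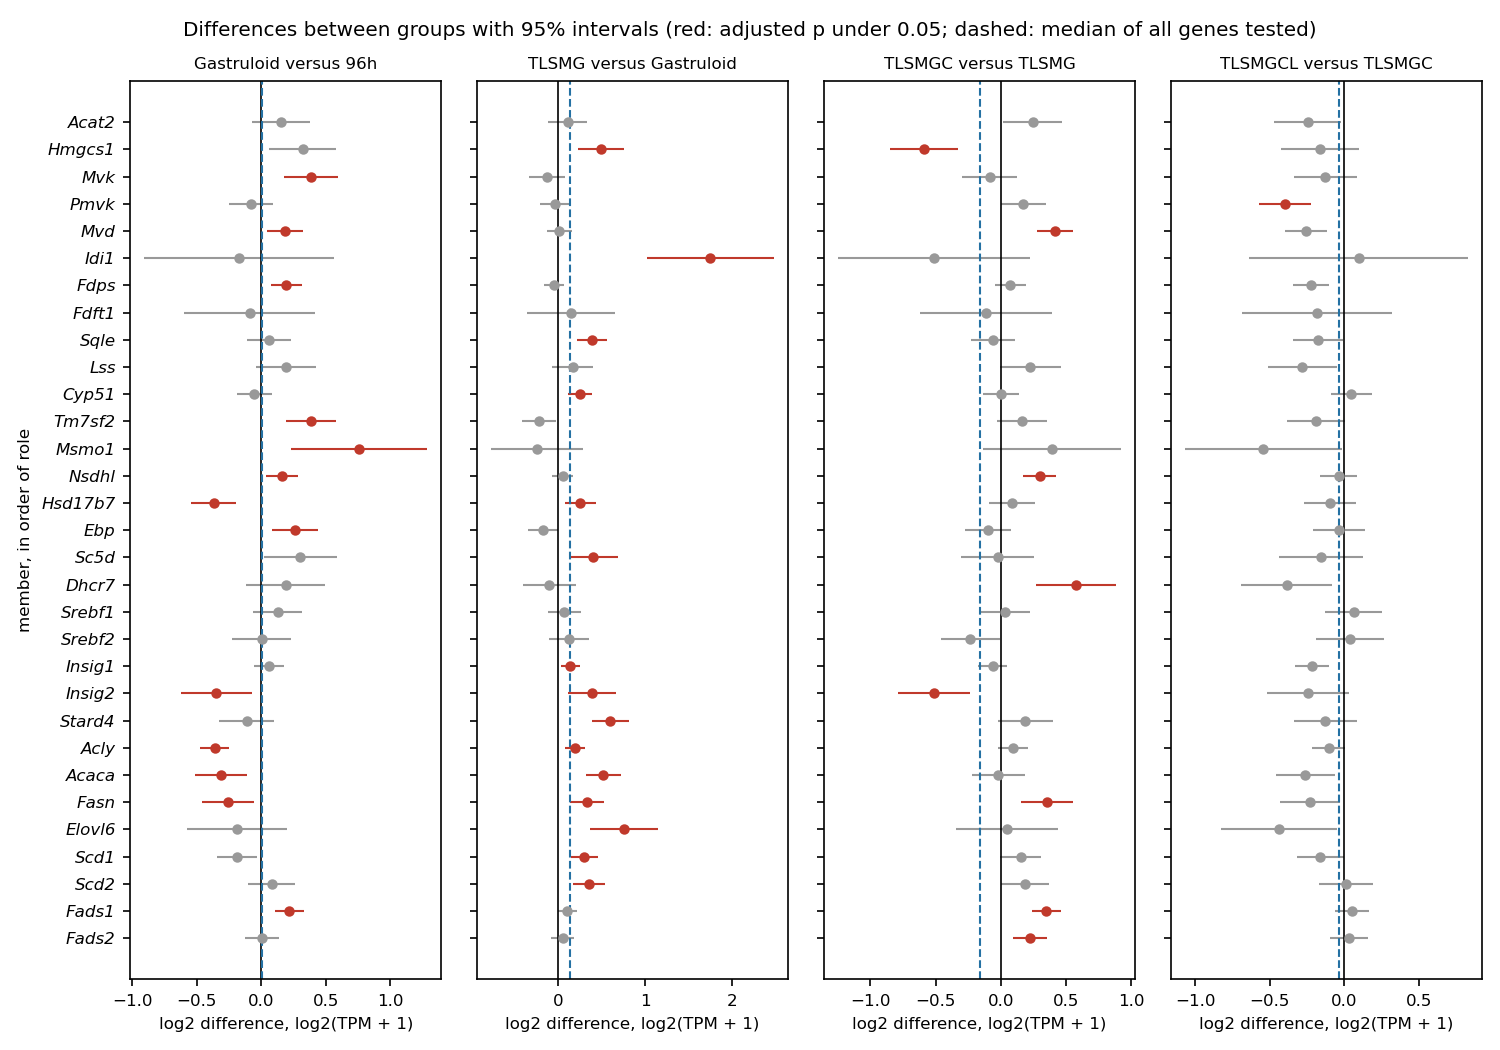
Log2 difference of each member with its 95% interval in 4 comparisons, in red where the adjusted p was under 0.05, with the median of all genes tested as a dashed line. TLSMG versus Gastruloid has red points only above 0, led by Idi1 at 1.75, and TLSMGCL versus TLSMGC has 1 red point, Pmvk at -0.40.

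In Matrigel, which members were called depended on how libraries were scaled to each other, while 20 of 31 kept their sign under all 4 scalings in TLSMG versus Gastruloid and 18 in TLSMG versus 96h. On TPM, 15 of 31 members were higher in TLSMG than in Gastruloid and 0 were lower, where 31.5% of all genes were higher and 7.87% lower (39.3% in either direction). The median difference was 0.15 over the members and 0.13 over all genes tested, which lay close together. Median-of-ratios scaling, which sets the typical gene to no change, brought the median of all genes to -0.02 and that of the members to -0.02, with 6 members higher (Hmgcs1, Idi1, Sqle, Stard4, Acaca and Elovl6) and 3 lower (Fdps, Tm7sf2 and Ebp). On those values 19.3% of all genes were higher and 18.2% lower. FPKM gave 6 higher and 4 lower (18.96% and 18.93% of all genes). A correction for transcript GC content and length gave 4 higher and 2 lower (11.46% and 10.59% of all genes). The difference between TLSMG and Gastruloid was related to GC content across 14283 genes (Pearson's r = -0.42, genes not being independent replicates), and the members' median GC content was 50.6%, against 50.85% for all genes tested.

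Elovl6, Idi1 and Stard4 were higher in TLSMG than in Gastruloid under all 4 scalings, under the other settings tried and with any 1 library left out. Idi1, the isomerase that acts on isopentenyl diphosphate, had 28.8, 40.8 and 35.4 TPM in Gastruloid and 129.6, 104 and 125 TPM in TLSMG. Every TLSMG library lay far above every Gastruloid library, with a ratio of means of 3.41 and a log2 difference of 1.75 (SE 0.341, adjusted p = 0.00162). Over the 4 scalings the log2 difference ran from 1.28 to 1.75.

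Elovl6, which lengthens C16 fatty acids, had 32.9, 27.5 and 40.3 TPM in Gastruloid and 50.8, 66.9 and 53.5 TPM in TLSMG (log2 difference 0.75, SE 0.18, adjusted p = 0.00536). Stard4, a cytosolic carrier of cholesterol between membranes, had 26.2, 31.2 and 32.2 TPM in Gastruloid and 46.6, 42.5 and 47.7 TPM in TLSMG (0.60, SE 0.0988, adjusted p = 0.000647). The groups did not overlap in either gene.

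Acaca and Hmgcs1 were called on TPM, FPKM and median-of-ratios values and not after the GC and length correction. Acaca had 54.8, 53.6 and 50.5 TPM in Gastruloid and 72.5, 72.3 and 84.8 TPM in TLSMG, a log2 difference of 0.52 (SE 0.0934, adjusted p = 0.00103) on TPM and 0.16 after the correction. Hmgcs1, which makes HMG-CoA, the precursor of mevalonate, had 284.5, 266 and 261 TPM in Gastruloid and 368, 382 and 389 TPM in TLSMG, a difference of 0.49 (SE 0.122, adjusted p = 0.00666) on TPM and 0.14 after the correction. Sqle, squalene epoxidase, followed the same pattern, with 0.39 on TPM (adjusted p = 0.00194) and 0.09 after the correction. The other members called on TPM, from Scd2 (0.35) to Insig1 (0.14), were Scd2, Fasn, Scd1, Sc5d, Insig2, Hsd17b7, Cyp51, Acly and Insig1. Of these, Scd1 alone was called under 1 of the other 3 scalings (the GC and length correction, 0.23), and Insig1 had a negative value under all 3.

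Endothelial markers (Kdr, Cdh5, Pecam1, Cldn5 and Tie1) summed to 25.4 to 32.0 TPM in Gastruloid and 195.4 to 242 TPM in TLSMG, and 4 of these 5 genes rose. Of 5 pluripotency markers, 4 fell, with sums of 218.8 to 349.7 TPM in Gastruloid and 102.6 to 132 TPM in TLSMG. Of 5 markers each, 2 somite and 2 neural tube genes fell, 1 gut endoderm gene fell and 3 presomitic and tailbud genes rose. These marker counts are on TPM, where 31.5% of all genes rose and 7.87% fell. The part of these markers in the members' differences was not tested.

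**Figure D4:**
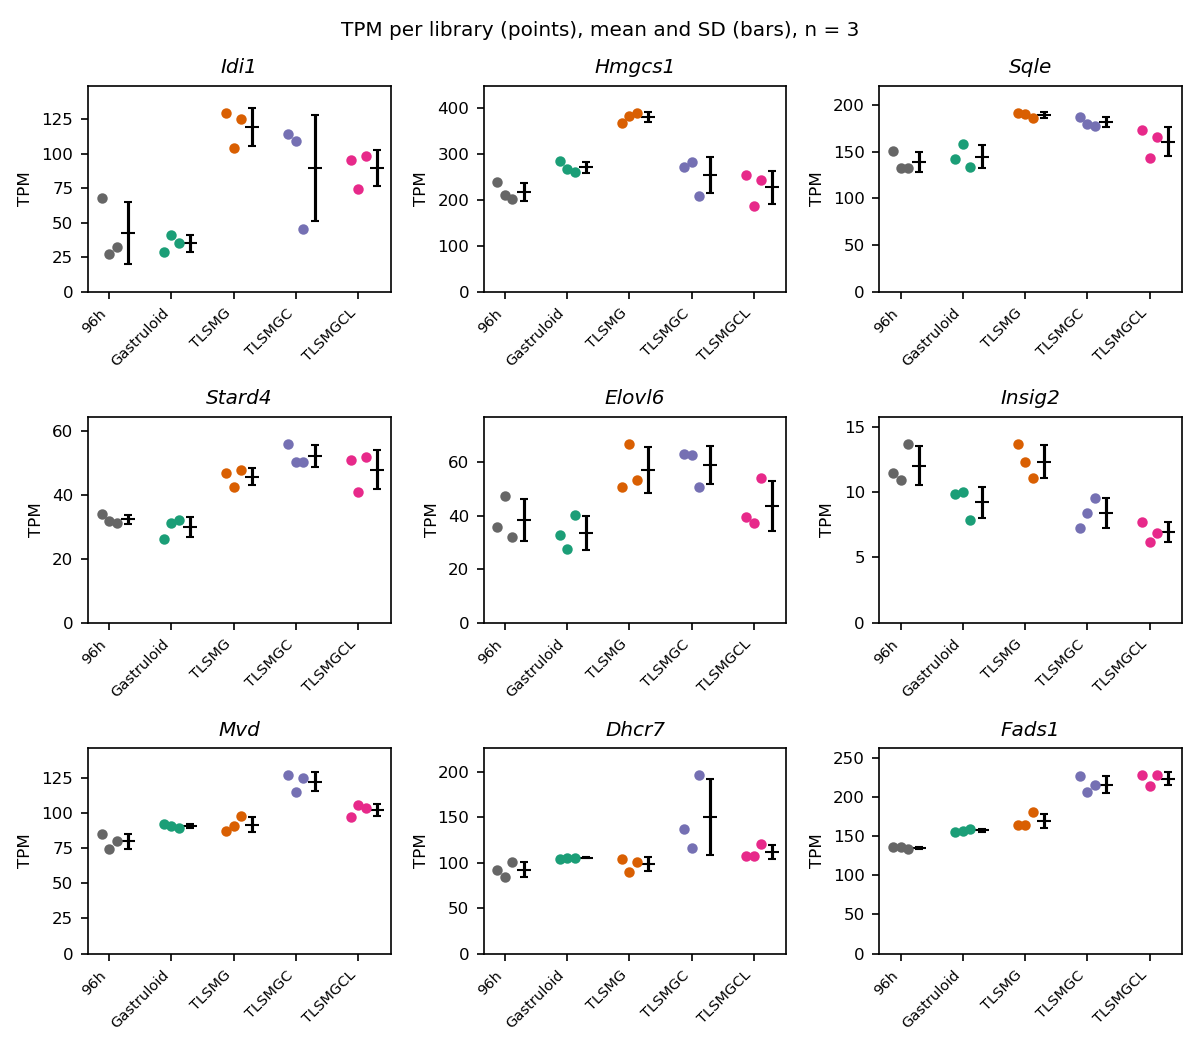
TPM of 9 members in each of the 15 libraries, with the mean and SD of 3 libraries beside the points. Idi1 is between 104 and 129.6 TPM in all 3 TLSMG libraries and between 28.8 and 40.8 TPM in Gastruloid, and TLSMGC replicate 3 stands at 45.6 TPM beside 114.5 and 109 TPM.

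Against the 96h group, TLSMG was higher in 15 members and lower in 1 (Acly) on TPM, where 33.5% of all genes were higher and 12.5% lower (46.0% in either direction). The members' median was 0.20 and that of all genes 0.14. On median-of-ratios values 7 members were higher and 3 lower (Pmvk, Hsd17b7 and Acly), with medians of 0.03 and -0.01. On the same values 22.35% of all genes were higher and 23.1% lower. FPKM gave 8 higher and 2 lower (27.6% and 17.2% of all genes). The GC and length correction gave 7 higher and 2 lower (20.5% and 24.3% of all genes). Fads1, Hmgcs1, Idi1, Sc5d, Scd2, Sqle and Stard4 were higher, and Acly lower, under all 4 scalings. The 96h libraries serve as the control here and in the comparison with Gastruloid, so the values of those comparisons are not independent.

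Idi1 had 68.1, 27.2 and 32.4 TPM at 96h, so the 96h libraries differed by over 2-fold among themselves, and all lay below the TLSMG libraries (log2 difference 1.58, SE 0.341, adjusted p = 0.00192). Without 96h replicate 1 the difference was 1.97. Hmgcs1 had 239, 211 and 200.5 TPM at 96h, and its rise to TLSMG was 0.81 (SE 0.122, adjusted p = 0.000121).

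Sc5d, the lathosterol desaturase near the end of the route, had 22.0, 18.2 and 19.9 TPM at 96h and 32.7, 32.2 and 34.7 TPM in TLSMG (0.70, SE 0.131, adjusted p = 0.00065). Stard4 had 33.8, 31.8 and 31.2 TPM at 96h, a difference of 0.49 to TLSMG (SE 0.0988, adjusted p = 0.00127). Elovl6 had 35.9, 47.3 and 32.1 TPM at 96h, a difference of 0.57 (SE 0.18, adjusted p = 0.0200). Among these, the Elovl6 call was lost on median-of-ratios values, after the GC and length correction, and without 96h replicate 1 (adjusted p = 0.0603), 96h replicate 3 (0.0866) or TLSMG replicate 2 (0.0880). The fall of Acly (-0.17, adjusted p = 0.0167) missed the threshold without 96h replicate 1 (0.0629) or TLSMG replicate 1 (0.0712).

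With further CHIR99021 in Matrigel, 2 of the 8 genes after lanosterol (Nsdhl and Dhcr7) and 3 of the 8 fatty acid genes (Fasn, Fads1 and Fads2) rose, as did Mvd, while Hmgcs1 and Insig2 fell. The members' median stood above that of all genes under each of the 4 scalings. That also held in Gastruloid versus 96h, TLSMG versus 96h and TLSMGCL versus TLSMG. On TPM, 6 of 31 members were higher in TLSMGC than in TLSMG (Mvd, Nsdhl, Dhcr7, Fasn, Fads1 and Fads2) and 2 were lower (Hmgcs1 and Insig2), where 10.4% of all genes were higher and 30.5% lower (40.9% in either direction). The median difference was 0.09 over the members and -0.16 over all genes tested. With median-of-ratios values, which bring the median of all genes to -0.01, 16 members were higher and 2 lower and the members' median was 0.24, where 18.3% of all genes were higher and 18.8% lower. FPKM gave 16 higher and 2 lower (15.4% and 22.2% of all genes), with medians of 0.18 and -0.05. The GC and length correction gave 20 higher and 2 lower (21.5% and 16.9% of all genes), with medians of 0.28 and 0.02. The 8 members called on TPM were called in the same direction under all 4 scalings. All 8 were also called with any 1 library left out, and Fads2 was not called with the compared groups alone in the fit (adjusted p = 0.0544).

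Among the mevalonate genes, Hmgcs1 fell from 368, 382 and 389 TPM in TLSMG to 271, 283 and 209 TPM in TLSMGC (log2 difference -0.59, SE 0.122, adjusted p = 0.00176). Mvd, the decarboxylase that makes isopentenyl diphosphate, rose from 87.1, 90.5 and 97.8 TPM to 127, 115 and 125 TPM (0.41, SE 0.0647, adjusted p = 0.000233). An earlier and a later enzyme of the same route thus moved in opposite directions, and in neither gene did the groups overlap. Idi1 had 114.5, 109 and 45.6 TPM in TLSMGC, a difference of -0.51 (95% interval -1.25 to 0.22) that did not pass the test, with 1 library far below the other two.

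Dhcr7, 7-dehydrocholesterol reductase, the last step to cholesterol, had 104, 89.5 and 101 TPM in TLSMG and 137, 116 and 197 TPM in TLSMGC (0.57, SE 0.142, adjusted p = 0.00582). TLSMGC replicate 3, the library with the lowest Idi1 and Hmgcs1 of its group, had the highest Dhcr7, and without it the Dhcr7 difference was 0.36 (adjusted p = 0.0113). Nsdhl, a sterol dehydrogenase acting with Msmo1, rose by 0.30 (adjusted p = 0.00116), from a mean of 98.5 to 121 TPM.

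Among the fatty acid genes, Fasn, fatty acid synthase, had 221, 249 and 278 TPM in TLSMG and 336, 287 and 333 TPM in TLSMGC (0.35, SE 0.0923, adjusted p = 0.00776). The groups came close to each other, at 278 and 287 TPM, without overlapping. Fads1 and Fads2, the delta-5 and delta-6 desaturases that make long polyunsaturated fatty acids, rose by 0.35 (adjusted p = 0.000171) and 0.22 (adjusted p = 0.00997). Fads1 and Fads2 are neighbours on chromosome 19, 81384 bases apart on opposite strands. Under median-of-ratios scaling Acly, Scd1 and Scd2 were called higher as well, so that 6 of the 8 fatty acid genes rose (0.25 for Acly, 0.31 for Scd1 and 0.35 for Scd2). Insig2 had 13.6, 12.3 and 11.1 TPM in TLSMG and 7.22, 8.38 and 9.51 TPM in TLSMGC (-0.51, SE 0.128, adjusted p = 0.00624).

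Marker genes moved with this comparison in the same libraries. The 5 presomitic and tailbud markers rose, with sums of 49.1 to 68.0 TPM in TLSMG and 200.3 to 263 TPM in TLSMGC. The 5 neural tube markers fell, from 133 to 201 TPM down to 32.4 to 40.8 TPM, as did the 5 endothelial markers, from 195.4 to 242 TPM down to 18.2 to 60.9 TPM. The 5 pluripotency markers fell, from 102.6 to 132 TPM down to 33.2 to 64.3 TPM, and of the 5 somite markers 1 rose and 3 fell, from 698.8 to 833.5 TPM down to 551.3 to 587.8 TPM. Of the 5 gut endoderm markers, 2 fell. These marker counts are on TPM, where 10.4% of all genes rose and 30.5% fell. The part of these markers in the members' differences was not tested.

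**Figure D5:**
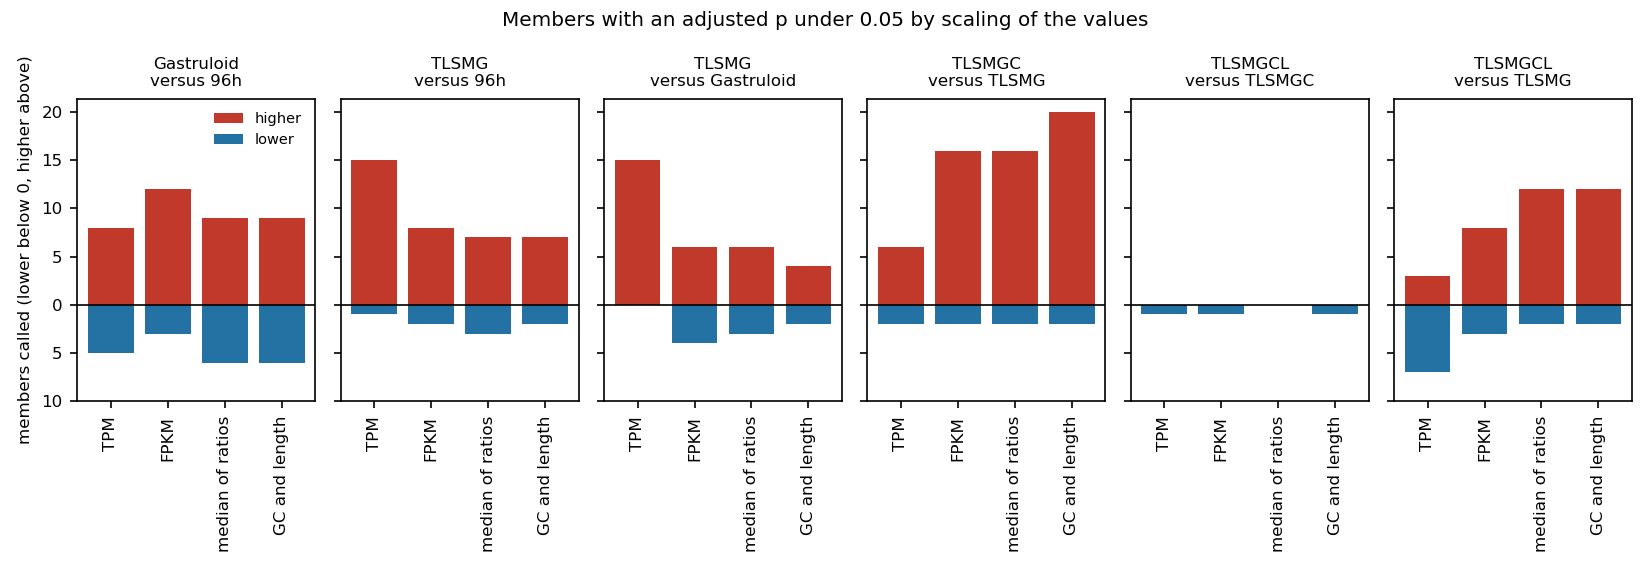
Members with an adjusted p under 0.05 by comparison and by scaling of the values, with those higher above 0 and those lower below 0. TLSMGC versus TLSMG has 6 higher on TPM and 16 to 20 on the other scalings, whereas TLSMG versus Gastruloid has 15 on TPM and 4 to 6 on the others.

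With LDN added to CHIR99021 and Matrigel, 1 member passed the test. Pmvk, phosphomevalonate kinase, had 66.8, 60.9 and 69.1 TPM in TLSMGC and 46.8, 52.5 and 49.1 TPM in TLSMGCL, without overlap (log2 difference -0.40, SE 0.0804, adjusted p = 0.0320). The background in this comparison was 1.18% of all genes in either direction, 0.406% higher and 0.777% lower. The call was lost on median-of-ratios values, with no expression filter, with the compared groups alone, with a replicate block, and in 5 of the 6 fits without 1 library, the exception being the fit without TLSMGCL replicate 2. Without TLSMGC replicate 1, 2 or 3 the adjusted p was 0.0938, 0.0510 and 0.0785, and without TLSMGCL replicate 1 or 3 it was 0.125 and 0.0957. The median difference was -0.16 over the members and -0.04 over all genes tested, and 7 of 31 members had a positive value. The largest differences that did not pass were those of Msmo1 (-0.54) and Elovl6 (-0.44), and Msmo1 had 99.9, 68.8 and 146 TPM in the TLSMGCL libraries.

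Against TLSMG, TLSMGCL was higher in 3 members (Nsdhl, Fads1 and Fads2) and lower in 7 (Hmgcs1, Pmvk, Fdps, Sqle, Insig1, Insig2 and Acaca) on TPM, where 9.31% of all genes were higher and 35.6% lower (44.9% in either direction). The medians were -0.06 over the members and -0.18 over all genes. Median-of-ratios values gave 12 higher and 2 lower with medians of 0.14 and -0.0019, where 19.1% of all genes were higher and 20.05% lower. FPKM gave 8 higher and 3 lower (15.1% and 24.9% of all genes). The GC and length correction gave 12 higher and 2 lower (21.8% and 16.9% of all genes). Nsdhl, Fads1 and Fads2 were higher and Hmgcs1 and Insig2 lower under all 4 scalings and with any 1 library left out. The comparison shares its TLSMG libraries with that of TLSMGC, so the overlap in genes is not independent.

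Hmgcs1 had 253, 186 and 243 TPM in TLSMGCL, all below the TLSMG libraries (-0.75, SE 0.122, adjusted p = 0.000263). Fads1 had 164, 164 and 180.3 TPM in TLSMG and 228, 214 and 228 TPM in TLSMGCL (0.40, SE 0.0525, adjusted p = 4.7e-05). Its group means were 135 ± 1.3 at 96h, 157 ± 2.0 in Gastruloid, 169 ± 9.4 in TLSMG, 216 ± 10.4 in TLSMGC and 223 ± 8.1 TPM in TLSMGCL (SD, n = 3). Neither TLSMG and Gastruloid nor TLSMGCL and TLSMGC, neighbours in that order, differed by the test on TPM. Acaca had 68.5, 52.8 and 68.3 TPM in TLSMGCL (-0.28, SE 0.0934, adjusted p = 0.0262). Its call was lost without TLSMGCL replicate 2, the library at 52.8 TPM (adjusted p = 0.116), or TLSMG replicate 3 (0.119), and on the other 3 scalings.

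The highest group mean exceeded the lowest by a ratio of 1.17 for Srebf2 and 1.23 for Srebf1, the transcripts of the SREBPs themselves. Srebf2, the main activator of sterol genes, had 170.5, 182 and 156 TPM at 96h, 179.7, 154 and 175 TPM in Gastruloid, 175, 185.5 and 193 TPM in TLSMG, 177, 129 and 168 TPM in TLSMGC and 169, 149.5 and 165 TPM in TLSMGCL. The libraries of all groups overlapped with those of at least 1 other group, and Srebf2 passed no comparison on any of the 4 scalings. Its largest difference on TPM was -0.23, in TLSMGC versus TLSMG (95% interval -0.46 to -0.0059, adjusted p = 0.0935).

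Srebf1, whose products favour fatty acid genes, had 40.7, 39.2 and 42.1 TPM at 96h, 45.8, 42.4 and 45.4 TPM in Gastruloid, 40.9, 50.6 and 49.5 TPM in TLSMG, 54.1, 43.2 and 46.8 TPM in TLSMGC and 50.9, 49.1 and 50.02 TPM in TLSMGCL. The lowest group was 96h and the highest TLSMGCL, and on TPM no comparison passed. On other scalings it was called higher in TLSMGCL than in TLSMG (0.29 with median-of-ratios values), in TLSMGC than in TLSMG after the GC and length correction (0.21), and in Gastruloid than at 96h on FPKM (0.21). Srebf1 shares 109 exonic bases with Rai1 on the opposite strand, and whether reads were counted by strand is not given in the sources used here. SREBP activity is set by cleavage and transport of the protein, which RNA levels do not measure.

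Insig1 had 97.0, 92.3 and 88.8 TPM at 96h, 94.6, 98.7 and 96.3 TPM in Gastruloid, 109, 100.7 and 109.9 TPM in TLSMG, 101, 103 and 101.5 TPM in TLSMGC and 90.7, 84.6 and 87.9 TPM in TLSMGCL. All TLSMGCL libraries lay below all TLSMG libraries (-0.28, SE 0.0528, adjusted p = 0.000893), a call lost with median-of-ratios values and after the GC and length correction. Insig2 had 11.4, 10.9 and 13.7 TPM at 96h, 9.85, 9.96 and 7.84 TPM in Gastruloid, and 7.68, 6.14 and 6.86 TPM in TLSMGCL, beside the TLSMG and TLSMGC values above. Its difference between TLSMGCL and TLSMG was -0.75 (SE 0.128, adjusted p = 0.000382), a ratio of means of 0.56, with no overlap. Insig1 is itself a known SREBP target.

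Over the 4 groups at 120 h, 26 of 31 members differed by the moderated F test (adjusted p under 0.05), where 62.7% of all genes did. Fdft1, Tm7sf2, Msmo1, Srebf1 and Srebf2 did not pass. Fdft1, squalene synthase, ranged from 50.1 to 109 TPM with a within-group coefficient of variation of up to 28.5%, and it shares 774 exonic bases with Ctsb on the opposite strand. The coefficient of variation reached over 20% in some group for Fdft1, Idi1, Msmo1, Dhcr7 and Elovl6, whereas its median was 6.30% over members and groups and 9.26% over all genes tested.

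Neighbouring pathways were described from lists of genes outside the 31 members. Of 3 genes that process SREBPs, 1 passed on TPM in TLSMG versus Gastruloid, where 39.3% of all genes were called in either direction. It was Mbtps2, the membrane protease of the second cleavage, which rose by 0.88 (adjusted p = 0.000237). Its levels were 10.1 to 11.3 TPM in Gastruloid and 20.1 to 22.0 TPM in TLSMG. In TLSMGC versus TLSMG, 1 of the 3 passed, where 40.9% of all genes were called in either direction. It was Mbtps1, the protease of the first cleavage, which fell by 0.39 (adjusted p = 0.000518). Of 6 genes of the isoprenoid branch, 3 rose on TPM in TLSMG versus Gastruloid, where 31.5% of all genes rose on that scale, the largest being Pggt1b, a prenyltransferase subunit (0.74, adjusted p = 0.00204). Pggt1b fell again in TLSMGC versus TLSMG (-0.70, adjusted p = 0.00226). There 1 of the 6 rose and 1 fell, where 10.4% of all genes rose and 30.5% fell.

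Of 11 genes of sterol uptake, transport and LXR signalling, 2 rose and 7 fell from 96h to Gastruloid, where 20.8% of all genes rose and 20.5% fell, the largest change being in Lrp8, a lipoprotein receptor (-1.02, adjusted p = 5e-05). In TLSMGC versus TLSMG 3 rose and 5 fell, with a median of -0.21, where 10.4% of all genes rose and 30.5% fell with a median of -0.16. Abca1, a cholesterol exporter, had 3.70 to 4.55 TPM in TLSMG and 0.66 to 0.87 TPM in TLSMGC (-1.56, adjusted p = 6.1e-07). With LDN it was higher again, at 1.86 to 2.75 TPM (0.90 against TLSMGC, adjusted p = 0.00315). Mylip, which marks lipoprotein receptors for breakdown, had 10.1 to 12.1 TPM in TLSMG and 2.25 to 3.32 TPM in TLSMGCL (-1.68, adjusted p = 1.6e-07). Unlike Abca1, Mylip fell with LDN, from 4.56 to 5.525 TPM in TLSMGC (-0.68 in TLSMGCL versus TLSMGC, adjusted p = 0.0116, limma). In that comparison 1 of the 11 genes rose and 1 fell, where 0.406% of all genes rose and 0.777% fell. ABCA1 and MYLIP are known targets of the sterol sensors LXR, and LXR activity was not measured.

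Of the 13 tested genes of fatty acid oxidation, 1 rose and 6 fell in TLSMGC versus TLSMG, where 10.4% of all genes rose and 30.5% fell. Their median was -0.21, beside -0.16 for all genes and 0.17 for the 8 fatty acid synthesis members. The largest fall was in Acadl, an acyl-CoA dehydrogenase, from 17.8 to 20.3 TPM down to 8.60 to 10.1 TPM (-0.91, adjusted p = 5.2e-06). Of 15 tested genes of other fatty acid synthesis steps, 2 rose and 4 fell there, with a median of -0.05 beside -0.16 for all genes. Fads3, a relative of Fads1 and Fads2, fell from 2.06 to 2.24 TPM down to 0.52 to 0.91 TPM (-0.85, adjusted p = 0.000138). In TLSMG versus Gastruloid, 7 of these 15 rose and 0 fell, and 1 of the 13 oxidation genes rose and 0 fell, where 31.5% of all genes rose and 7.87% fell. These lists were counted on TPM, and with median-of-ratios values 19.3% of all genes rose and 18.2% fell in that comparison.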

How the data were processed

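The deposited TPM values (a length-corrected abundance with 1 total per library) came from 15 StringTie gene tables, 1 per library, per the file headers. The authors' FPKM values (fragments per kilobase relative to library size) served as an alternative, and the deposited coverage values gave relative depth and entered no test. The submitters' processing notes list cutadapt 2.4, STAR 2.7.3a, StringTie 2.0 and mm10. No counts were given, so no counting intervals were computed. Lines of 1 gene ID (7 to 13 repeated per table) were summed.

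Tests were run in limma 3.58.1 (R 4.3.3). Values were log2(TPM + 1), genes averaging 1 TPM or more were kept, and there was 1 model of 5 groups with a trend in the prior variance. P-values are two-sided, Benjamini-Hochberg adjusted over 14290 genes within each of 6 comparisons, with a threshold of 0.05. The fit was run on simulated data with independent noise and few changed genes. The simulation held no shift in scaling or GC content, so it does not test how the fit handles such shifts. Log2 differences understate changes of low genes. A call means an adjusted p under the threshold. Alternatives were a mean TPM of at least 5, no filter, a pseudocount of 0.1, median-of-ratios scaling, FPKM, correction for GC content and length (GENCODE M21 transcripts), a replicate block, the compared groups alone, and each library left out. Python 3.11.15 made the motif counts and plots.

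The members and lists were chosen with earlier results of these data known. By the naming rule, library values are given for the 4 regulators and, per comparison, up to 5 called members with the largest absolute log2 difference. From each other list, the called gene with the largest difference may be named. Sequences were read from RefSeq for 24 members; Fdps, Fdft1, Sqle, Stard4, Scd1, Scd2 and Fads1 had no entry.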

Additional observations from a re-analysis of the deposited data

How the results depend on the processing

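The number of members called was within 1.5 times of that on TPM under most settings, and scaling changed it most. With median-of-ratios values it was 10 for TLSMG versus 96h, 9 for TLSMG versus Gastruloid, 18 for TLSMGC versus TLSMG and 0 for TLSMGCL versus TLSMGC. With FPKM it was 10 for TLSMG versus 96h and 18 for TLSMGC versus TLSMG. After the GC content and length correction it was 9, 6 and 22 for TLSMG versus 96h, TLSMG versus Gastruloid and TLSMGC versus TLSMG. For TLSMGCL versus TLSMGC it was also 0 with no expression filter, with the replicate block and with the compared groups alone. The total hides a change of direction in TLSMGCL versus TLSMG. There 3 members were higher and 7 lower on TPM, but 12 higher and 2 lower with median-of-ratios values and after the GC and length correction. For comparisons other than TLSMGCL versus TLSMGC, the shares of all genes under each scaling stand with the counts above. The cause of these changes was not tested.

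Without 1 library the number called ran from 7 to 10 for Gastruloid versus 96h, 11 to 13 for TLSMG versus 96h, 10 to 13 for TLSMG versus Gastruloid, 8 to 10 for TLSMGC versus TLSMG, 0 to 1 for TLSMGCL versus TLSMGC, 7 to 9 for TLSMGCL versus TLSMG and 20 to 25 for the F test. Of 63 calls of a member in a comparison, 27 were kept under all 8 settings and all omissions. Of 882 values of these calls under an alternative, 691 kept the call, 181 lost it and 10 changed sign.

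The values that changed sign were these, and none of them passed the test there. With median-of-ratios values, Fdps was -0.0258 in TLSMG versus 96h and 0.0486 in TLSMGCL versus TLSMG, and Insig1 was -0.0284 in TLSMG versus Gastruloid. With FPKM, Insig1 was -0.0328 in TLSMG versus Gastruloid. After the GC content and length correction, Cyp51 was -0.0325, Nsdhl -0.0689 and Insig1 -0.0774 in TLSMG versus 96h, Insig1 was -0.16 in TLSMG versus Gastruloid, and Sqle was 0.0797 and Acaca 0.0919 in TLSMGCL versus TLSMG.

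The labels number the replicates 1 to 3 in each group. Same-numbered libraries did not deviate together (mean correlation of deviations from -0.07 to 0.03 over the 6 comparisons), so the numbers were not taken as pairs. With the replicate block the members called were 12 for Gastruloid versus 96h, 14 for TLSMG versus 96h, 14 for TLSMG versus Gastruloid, 8 for TLSMGC versus TLSMG, 0 for TLSMGCL versus TLSMGC, 9 for TLSMGCL versus TLSMG and 23 by the F test. Depth per gene is not known without counts, so counting error cannot be separated from the spread between libraries.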
